A study of Mus musculus with 8 samples.

Results

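The cytosolic ribosomal protein genes form the group described here, taken as every array probe whose gene symbol is Rpl or Rps followed by a number, Rplp0 to Rplp2 or Rpsa, with the Rps6k kinases left out. On the array, 84 probes for 66 symbols met this rule, out of 16593 symbols in all. In total, 58 of the 66 had a probe brighter on average than the array median and were tested, and the other 8 were not. Of the 58, 52 encode canonical ribosomal proteins (31 of the large and 21 of the small subunit) and 6 are paralogues or carry a related symbol.

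The RNA came from whole spines of interleukin-4 knockout (IL4 knockout) mice on the BALB/c background, and both groups carried the deletion. In the PGISp (proteoglycan-induced spondylitis) group, 4 female mice were given human cartilage extract in the adjuvant dimethyl dioctadecyl ammoniumbromide on days 0, 21 and 42, starting at 3 months of age, and were collected 12 weeks after the first injection. The 4 control mice were not given the extract. PGISp animals were picked for severe arthritis of the limbs, and their spines were not scored before RNA extraction. All 8 samples shared 1 BeadChip, with PGISp RNA on arrays A, C, E and G. Control RNA was on arrays B, D, F and H, and each array is named by its letter. Values are log2 expression values normalised by the authors so that all arrays shared nearly one distribution: the sorted values of any pair of arrays differed by at most 0.0050. A change in the total amount of messenger per spine could therefore not be seen. A spine holds bone, marrow, muscle, cartilage and nerve, and fewer cells of a type and less RNA per cell cannot be told apart in such a sample.

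Cytosolic ribosomal proteins join the ribosomal RNAs to form the small subunit, which reads the messenger, and the large subunit, which joins amino acids. Their messengers are among the most abundant in any growing cell, and many begin with a run of pyrimidines, the 5′ terminal oligopyrimidine (TOP) tract, through which the kinase mTOR controls how much of them is translated. The genes are known for acting together: cells that divide or secrete protein carry more ribosomes, and mutations in single members cause Diamond-Blackfan anaemia in humans and, in mice, tail and skeletal defects.

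The question for this group was whether inflamed spines held more or less of these messengers than control spines. Most members were slightly higher in PGISp spines, and few of the differences passed the test. A gene was called at a Benjamini-Hochberg adjusted p under 0.1 in limma over all 9609 genes tested. By this rule Rpl23 and Rpl23a, both large subunit proteins, were called higher, and 0 members were called lower. These 2 of 58 genes are 3.45%, against 10.8% of all genes tested. In the higher direction alone the background was 6.25% and in the lower direction 4.56%, so calls were no more frequent among ribosomal protein genes than on the whole array. Brighter genes were called more often. At a mean log2 value of 12 or more, 7.14% of members were called, against 27.3% of genes outside the family. The shares were 0% against 22% between 9 and 12, and 0% against 8.45% under 9. At an unadjusted p under 0.05, 13 members were higher and 2 lower, while over all genes tested 1117 were higher and 1052 lower.

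In 47 of 58 members the fold change was above 0, a sign that 48.5% of all genes tested had. The median log2 fold change of the 58 was 0.16, a median fold of 1.11, with the middle 50% of members between 0.03 and 0.23 and the whole range between -0.48 and 0.37. Over all genes tested the median was -0.005. The members were measured on the same 8 arrays and are not replicates of one another. Large subunit genes had a median log2 fold change of 0.13, with 25 of 31 above 0, and small subunit genes had 0.18, with 17 of 21 above 0.

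**Figure D1:**
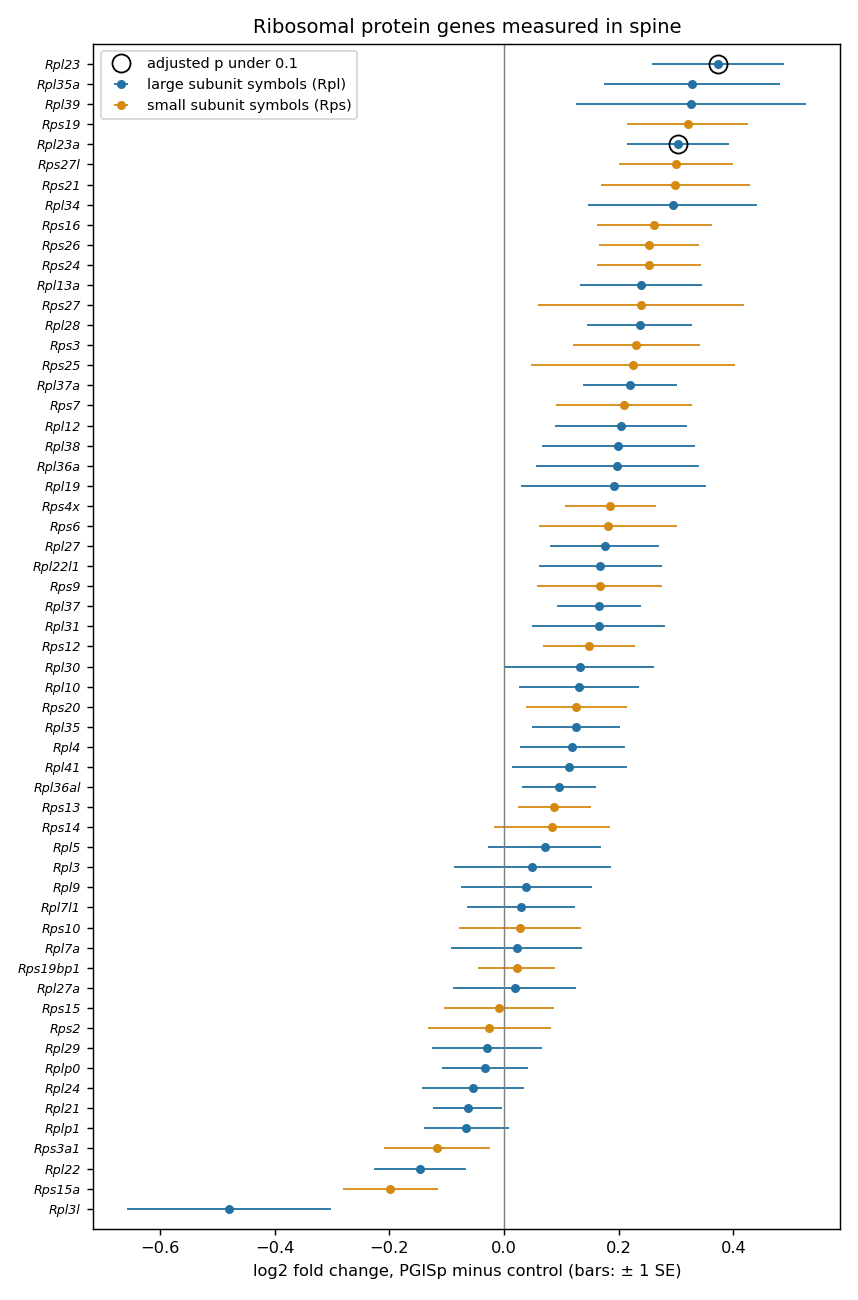
Each row is 1 of the 58 measured ribosomal protein genes; the horizontal axis gives the log2 fold change, PGISp minus control, with a bar of 1 SE to each side (n = 4 arrays each). Points lie between -0.48 for Rpl3l and 0.37 for Rpl23, 47 of them right of 0, and the 2 ringed genes, Rpl23 and Rpl23a, passed an adjusted p of 0.1.

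Rpl23 encodes a large subunit protein at the face that meets the small subunit, and it also binds the p53 regulator MDM2. Its log2 values were 14.34, 14.02, 14.28 and 13.77 on PGISp arrays A, C, E and G, against 13.64, 13.77, 13.77 and 13.75 on control arrays B, D, F and H. Arrays A, C and E were above all controls, while array G stood level with control arrays D and F. The means were 14.11 ± 0.26 in PGISp spines and 13.73 ± 0.06 in control spines (SD, n = 4 each). This gave a log2 difference of 0.37 ± 0.12 (SE; adjusted p = 0.0891, limma).

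Rpl23a encodes the protein beside the exit of the tunnel through which new proteins leave the ribosome. Its values were 12.41, 12.27, 12.37 and 12.16 in PGISp spines, against 11.95, 12.19, 11.82 and 12.03 in control spines. Only control array D reached into the PGISp range, just above array G. The log2 fold change was 0.30 ± 0.09 (SE; adjusted p = 0.0745, limma). Both calls rested on single arrays. Rpl23 lost its call without any 1 of PGISp A, C or E or control B, D, F or H, and Rpl23a lost it without any 1 of PGISp A, C or E or control B, F or H. Over the alternatives Rpl23 was called in 10 of 22, with adjusted p between 0.011 and 0.406, and Rpl23a in 10 of 22, with adjusted p between 0.041 and 0.469.

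The next largest increases did not pass the test. Rps19, whose human counterpart was the first linked to Diamond-Blackfan anaemia, had 12.60, 12.47, 12.66 and 12.23 in PGISp spines, against 12.13, 12.37, 12.004 and 12.18 in control spines. The groups overlapped through arrays G and D only, and the log2 fold change was 0.32 ± 0.11 (SE; adjusted p = 0.107, limma). Rps27l, a paralogue of Rps27 that p53 induces, had 12.18, 11.76, 12.01 and 11.75 in PGISp spines, against 11.72, 11.65, 11.51 and 11.62 in control spines. Its groups did not overlap, and the log2 fold change was 0.30 ± 0.10 (SE; adjusted p = 0.110, limma).

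Rpl35a, another large subunit gene tied to Diamond-Blackfan anaemia, had a log2 fold change of 0.33 ± 0.15 (SE; adjusted p = 0.244, limma). Its values lay between 11.86 and 12.52 in PGISp spines and between 11.62 and 12.12 in control spines. Rpl39, a very small protein that lines the exit tunnel, had 0.33 ± 0.20 (SE; adjusted p = 0.378, limma), and its spread was wide on both sides, between 12.72 and 13.62 in PGISp spines and between 12.29 and 13.01 in control spines. In all, 3 members had every PGISp array above every control array: Rps27l and, named after their values were seen, Rps24 and Rps4x. This order held for 7.77% of all genes tested. The opposite order, every PGISp array below every control array, held for 0 members and for 5.67% of all genes tested.

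**Figure D2:**
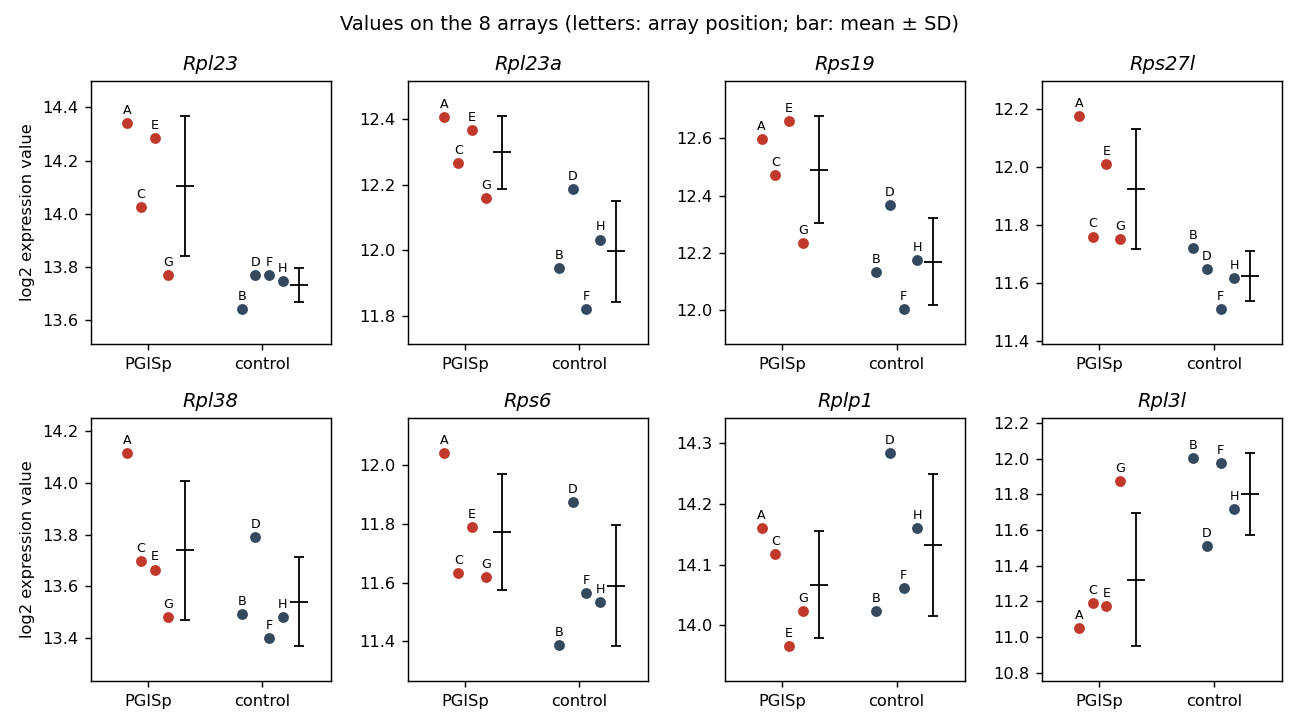
Each panel gives the log2 expression value of 1 gene on the 4 PGISp arrays (red, left) and the 4 control arrays (dark blue, right), lettered by array position, with the group mean ± SD in black; each panel has its own vertical axis, which does not start at 0. Arrays A and E lead the PGISp group in the panels of Rpl23, Rpl23a, Rps19 and Rps27l, and Rpl3l is lowest on arrays A, C and E.

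Members with negative fold changes were few. The lowest was Rpl3l, the paralogue that replaces Rpl3 in striated muscle. Its values were 11.05, 11.19, 11.18 and 11.87 in PGISp spines, against 12.004, 11.51, 11.97 and 11.72 in control spines. Arrays A, C and E were below all controls, and array G lay among them. The log2 fold change was -0.48 ± 0.18 (SE; adjusted p = 0.143, limma), and without array G it was -0.66 and passed the test with an adjusted p of 0.010.

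Rps15a, a small subunit protein, had 7.32, 7.35, 7.42 and 7.18 in PGISp spines, against 7.32, 7.65, 7.50 and 7.59 in control spines. Control array B fell among the PGISp arrays, and the log2 fold change was -0.20 ± 0.08 (SE; adjusted p = 0.188, limma). Rpl22, which is needed for the development of T cells in mice, had -0.15 ± 0.08 (SE; adjusted p = 0.320, limma). Its values were between 8.78 and 9.11 in PGISp spines and between 9.02 and 9.21 in control spines. Rps3a1, a small subunit protein, differed by -0.12 and Rplp1 by -0.07 on the log2 scale, and neither passed the test. Rpl21, also among the 6 lowest, was tested on a probe with a mean of 6.77, level with the filter, and exceeded background on 5 of 8 arrays, of the PGISp arrays only on G, so no fold is read from it.

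The P stalk is the arm of the large subunit that recruits elongation factors, made of Rplp0, Rplp1 and Rplp2. Rplp1 had 14.16, 14.12, 13.97 and 14.02 in PGISp spines, against 14.02, 14.28, 14.06 and 14.16 in control spines. The groups overlapped over most of their range, with a log2 difference of -0.07 ± 0.07 (SE) and a 95% interval from -0.23 to 0.10. These values lay near the top of the scale, where the highest value on every array was 14.48. How well differences are resolved there was not tested. For Rplp0, the base of the stalk, the log2 difference was -0.03 ± 0.08 (SE), with an interval from -0.20 to 0.14. Its tested probe was dim, with a mean of 7.59, and a second Rplp0 probe exceeded background on 0 arrays. Rplp2 was below the filter. Rpl5, which with Rpl11 and the 5S RNA holds MDM2 in check, had 12.97, 12.62, 12.64 and 12.59 in PGISp spines, against 12.50, 12.81, 12.64 and 12.59 in control spines. Array A was above all others and the rest of the PGISp arrays lay among the controls, and the log2 difference was 0.07 ± 0.10 (SE).

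Several members are known for mouse mutants with skeletal or tail defects, and all 5 of these on the list fixed here were measured and 0 were called. Rpl38, the gene of the Tail short mutant and a regulator of Hox messenger translation, had 14.12, 13.70, 13.67 and 13.48 in PGISp spines, against 13.49, 13.79, 13.40 and 13.48 in control spines. The groups overlapped, and the log2 difference of 0.20 ± 0.13 (SE; adjusted p = 0.423, limma) was 0.07 without array A. A second Rpl38 probe, dimmer with a mean of 8.34 but above background on all 8 arrays, had a log2 difference of only 0.003. Rps7 differed by 0.21, Rpl24, the gene of the Belly spot and tail mutant, by -0.05, Rpl27a by 0.02 and Rpl29 by -0.03. Of the Diamond-Blackfan anaemia genes, 12 were measured and 0 were called, with 11 above 0 and a median log2 fold change of 0.19. In lists this short, a lack of calls cannot be set apart from the 10.8% called among all genes tested. Rps6, whose protein is the classical substrate of S6 kinase downstream of mTOR, had 12.04, 11.63, 11.79 and 11.62 in PGISp spines, against 11.39, 11.87, 11.56 and 11.53 in control spines. Control array D exceeded 3 PGISp arrays, and the log2 difference was 0.18 ± 0.12 (SE; adjusted p = 0.421, limma).

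Some ribosomal proteins have a paralogue that can take their place in certain tissues. Of the 6 measured paralogues and related symbols, 5 had fold changes above 0 and Rpl3l was the exception. Rpl22l1, the paralogue of Rpl22, differed by 0.17, Rpl36al by 0.10, Rpl7l1 by 0.03 and Rps19bp1, which encodes a protein that binds Rps19 and is no part of the ribosome, by 0.02. Rpl3, set beside its muscle paralogue and named for that reason, had a log2 fold change of 0.05 ± 0.14 (SE). Ribosomal protein genes have many processed pseudogenes, and whether a probe also binds their transcripts or those of a paralogue was not examined.

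The 8 members below the filter were Rpl14, Rpl17, Rpl39l, Rpl6, Rplp2, Rps23, Rps23rg1 and Rpsa. The first 7 exceeded the background of their array on 0 arrays, and the brighter Rpsa probe did so on 4. Background was the 95th percentile of the odorant and vomeronasal receptor probes on each array, and no level is given for these members. Rpl23 had 3 probes above the filter, with log2 fold changes of 0.37, 0.18 and 0.14, of which the brightest alone was called when every probe was tested. In all, 15 members had several probes and 7 had at least 2 above the filter. The fold changes of these probes had the same sign within each gene except for Rps19, whose second probe, with a mean of 6.77, exceeded background on 5 of 8 arrays, so no direction is read from it.

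The size of the difference changed with the signal of the probe. Among the 28 members with a mean log2 value of 12 or more, 27 had a fold change above 0 and the median was 0.19. The 20 members between 9 and 12 had a median of 0.13, with 14 above 0, and the 10 members under 9 a median of 0.02, with 6 above 0. The medians of genes outside the family moved the other way, at -0.07, -0.03 and -0.003 in the same signal ranges. Their fold changes also spread more widely at higher signal. Their quartiles were -0.33 and 0.11 at 12 or more, -0.19 and 0.17 between 9 and 12, and -0.08 and 0.08 under 9. Larger differences at higher signal were therefore not particular to the family. At 12 or more, 44 of the 110 genes outside the family were also above 0. Why the medians went in different directions was not tested. An array signal depends on the probe as well as on the messenger, so these ranges do not rank the members by abundance.

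**Figure D3:**
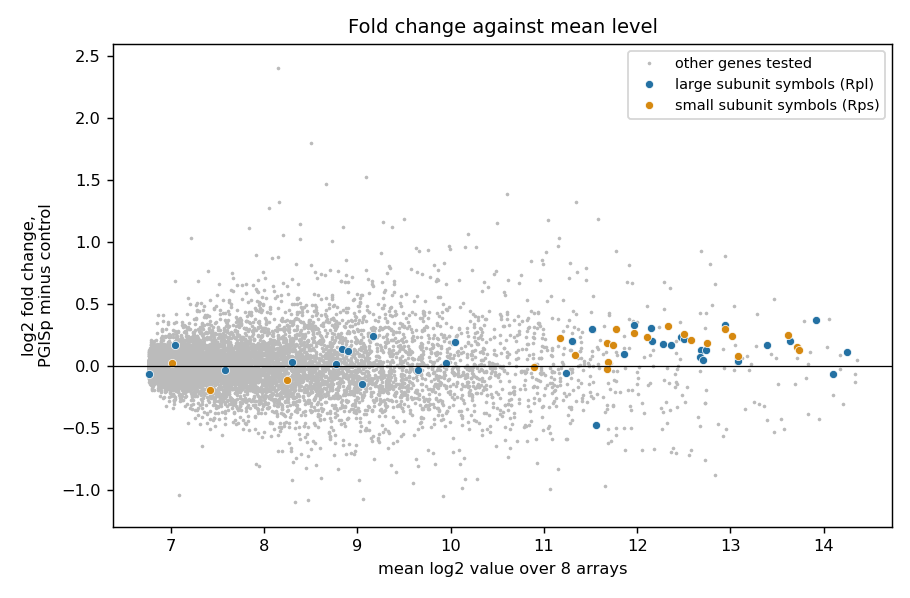
Each point is 1 gene, with its mean log2 value over the 8 arrays on the horizontal axis and its log2 fold change, PGISp minus control, on the vertical axis; blue and orange points are ribosomal protein genes and grey points the other genes tested. Of the 28 members at a mean of 12 or more, 27 lie above 0, within a band that reaches 0.37, while other genes at that signal spread to both sides.

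The canonical members moved together from array to array. Each gene was set to its own mean over the 8 arrays, and the 52 canonical members were then averaged on each array. This mean was 0.20 on PGISp array A, -0.005 on C, 0.17 on E and -0.09 on G, against -0.13 on control array B, 0.05 on D, -0.18 on F and -0.01 on H. Arrays A and E were above all controls, C and G lay within the control range, and control array D was higher than both C and G. The PGISp arrays averaged 0.07 ± 0.14 and the control arrays -0.07 ± 0.11 (SD, n = 4 each), so the difference of 0.13 was smaller than the SD within the PGISp group.

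Counted gene by gene, array A was the highest array for 24 of the 52 canonical members and array E for 19, against 6 for control array D and 3 for control array H. The lowest array was G for 8 members and C for 7, against 18 for control array F and 14 for control array B. The large and small subunits gave nearly the same profile. Large subunit genes averaged 0.19, -0.01, 0.17 and -0.09 on arrays A, C, E and G, against -0.13, 0.05, -0.19 and 0.006 on arrays B, D, F and H. Small subunit genes averaged 0.20, 0.01, 0.16 and -0.09 on the PGISp arrays, against -0.14, 0.06, -0.16 and -0.04 on the control arrays.

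**Figure D4:**
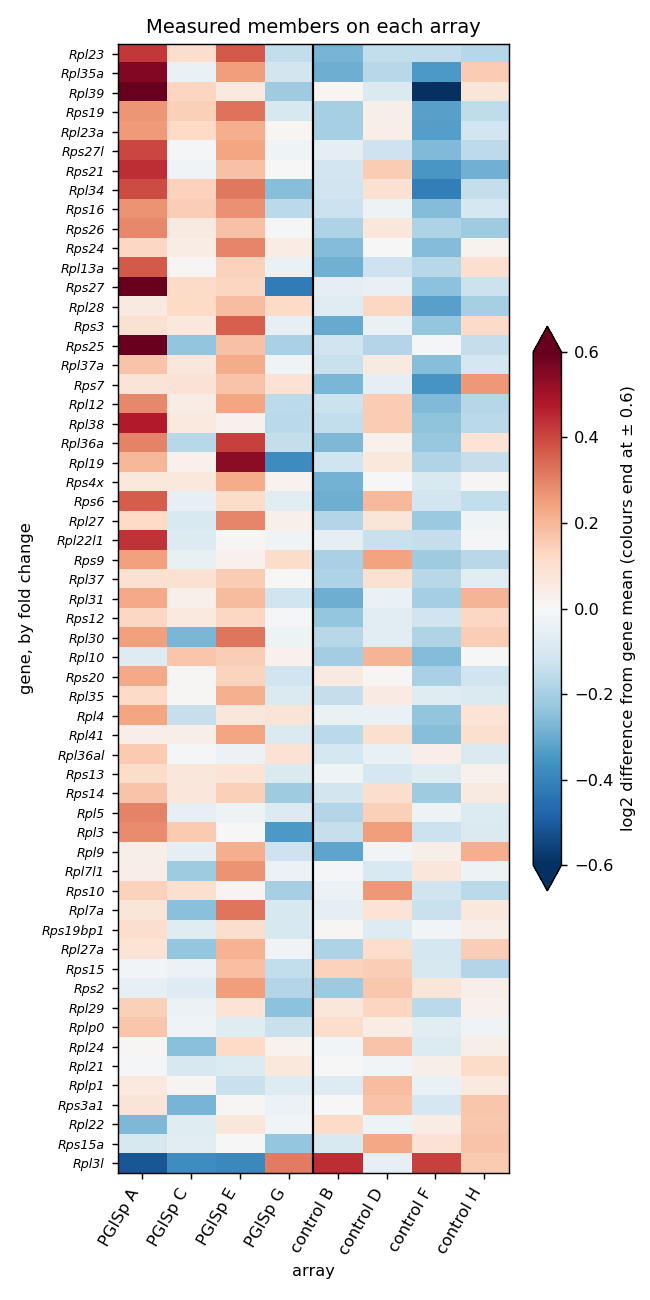
Rows are the 58 measured ribosomal protein genes from the highest to the lowest fold change and columns the 8 arrays, PGISp left of the black line and control right of it; colour gives the log2 difference from the gene's own mean, red above and blue below, with colours ending at 0.6 on either side. Arrays A and E are red and arrays B and F blue over most rows, while the row of Rpl3l runs the other way.

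Because the members shared this profile, single arrays weighed on the whole family. Without PGISp array A the median log2 fold change was 0.08 and 0 members were called, and without E it was 0.11 with 0 called. Without PGISp array G, 10 members were called higher and 1, Rpl3l, lower, at a median of 0.18. Without control array D, 8 were called higher. Leaving out control array B or F gave 0 calls, and leaving out C or H gave 1 each, Rps27l without C and Rps7 without H. The share called over all genes tested moved as well. It was 16.3% without G, 10.4% without D, 8.77% without A and 6.56% without E. It was 6.44% without B, 4.21% without F, 7.78% without C and 7.47% without H. A changing count of calls was therefore not particular to the family. The median of the family stayed above 0 in all 8 of these fits.

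Control arrays B and F also differed from the rest in the Y-linked gene Eif2s3y, which read between 6.49 and 6.65 on the PGISp arrays, against 8.57, 6.92, 8.33 and 6.63 on control arrays B, D, F and H. The sex of the control mice was not given in the sources used here. Without both arrays the median of the family was 0.07, 40 of 58 members were above 0 and 0 were called. Of all genes tested only 1.7% were called in this fit, so the lack of calls was not particular to the family. The part of sex in the result was not tested.

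Among the marker lists of other cell types, skeletal muscle stood in reverse order to the family. Skeletal muscle genes, 20 of 22 measured, were all lower in PGISp spines by fold change, with a median of -0.45. The 3 called, 15% against 10.8% of all genes tested, were Mb, Des and Tpm2, the genes of myoglobin, desmin and a tropomyosin. Averaged in the same way, the muscle list was -0.63, -0.17, -0.30 and 0.23 on PGISp arrays A, C, E and G, against 0.34, -0.06, 0.45 and 0.15 on control arrays B, D, F and H. Within each group the arrays stood in exactly the opposite order to the ribosomal protein genes: A, E, C, G and D, H, B, F from the least muscle signal to the most. The arrays stood in nearly the same order for Rpl3l as for the muscle list, with Rpl3l lowest on array A and highest on array B. The part of muscle content in the family's values was not tested.

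**Figure D5:**
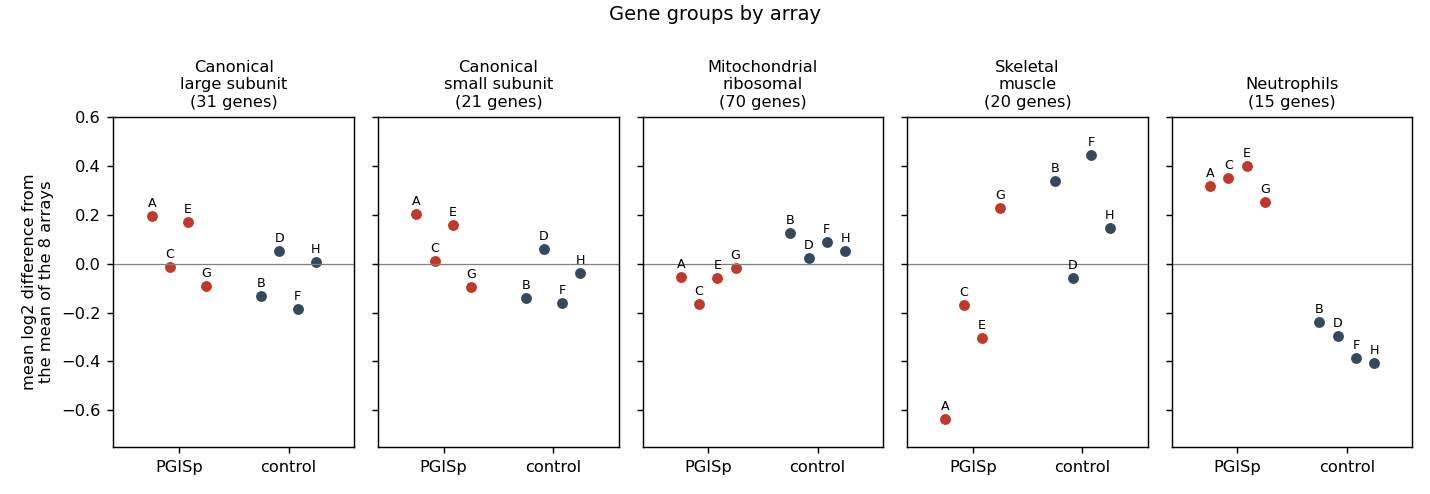
Each panel gives, for 1 group of genes, the mean log2 difference from the genes' own means on the 4 PGISp arrays (red, left) and the 4 control arrays (dark blue, right), lettered by array position. The 2 canonical subunits have the same profile, highest on A and lowest on F, the muscle genes run from -0.63 on A to 0.45 on F, and the neutrophil and mitochondrial ribosomal groups do not overlap between PGISp and control.

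Neutrophil genes had a different profile. Of 15 measured, 12 were called higher in PGISp spines, with a median log2 fold change of 0.74, and the list averaged between 0.26 and 0.40 on the PGISp arrays and between -0.41 and -0.24 on the control arrays, without the wide spread inside each group that the ribosomal protein genes had. Of the osteoblast and bone matrix genes 4 of 9 were called higher, with a median of 0.47, and the list averaged between -0.03 and 0.65 on the PGISp arrays and between -0.41 and -0.03 on the control arrays. Among B cell (9), T cell (6), macrophage (7), erythroid (7), cartilage (4), adipocyte (5) and nerve (4) markers, 0 were called, against 10.8% of all genes tested. The medians lay between -0.22 for adipocytes and 0.19 for cartilage. The part of these cells in the result was not tested.

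Mitochondria carry their own ribosome, built from a separate set of nuclear genes, and these went the other way. Of 70 mitochondrial ribosomal protein genes measured, 11 were called lower in PGISp spines and 1, Mrpl33, higher. The calls are 17.1% of the set, against 10.8% of all genes tested, and 57 genes had fold changes below 0, at a median of -0.15. The most lowered was Mrpl2, with 8.53, 8.49, 8.38 and 8.52 in PGISp spines, against 9.15, 8.89, 9.11 and 8.85 in control spines. Its groups were well apart, and the log2 fold change was -0.52 ± 0.08 (SE; adjusted p = 0.00790, limma). Mrps9 followed at -0.49 ± 0.07 (SE; adjusted p = 0.00577, limma) and Mrpl42 at -0.46 ± 0.14 (SE; adjusted p = 0.0978, limma). On the arrays the mitochondrial set averaged between -0.16 and -0.02 in PGISp spines and between 0.02 and 0.13 in control spines, with no overlap. No test of the difference between the cytosolic and the mitochondrial set was made.

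Genes around the ribosome showed few calls, in lists too short to set them apart from the 10.8% called among all genes tested. Other messengers with TOP tracts, 15 measured, had a median of 0.02 and 1 call, Npm1, a nucleolar chaperone of ribosome assembly, with 11.70, 11.90, 11.98 and 12.04 in PGISp spines, against 11.46, 11.58, 11.23 and 11.71 in control spines. Only array A fell below a control, array H, by a small margin, and the log2 fold change was 0.41 ± 0.11 (SE; adjusted p = 0.0571, limma). Of 24 ribosome assembly factors, 1 was called, Rrp12, an export factor of the subunits, which was lower by a log2 fold change of -0.19 ± 0.06 (SE; adjusted p = 0.0978, limma). The median of that list was 0.04. Neither the 15 translation initiation factors, at a median of -0.09, nor the 6 genes of RNA polymerase I, which makes the ribosomal RNA, at 0.06, held a called member.

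Among the 13 regulators of the mTOR and MYC pathways, which set the output of ribosomes, only Ddit4, an inhibitor of mTOR, was called. This is 7.69% of the list, against 10.8% of all genes tested. Ddit4 read 7.80, 7.50, 8.21 and 7.82 in PGISp spines, against 7.33, 7.50, 7.31 and 7.44 in control spines, with arrays C and D nearly level. The log2 fold change was 0.44 ± 0.13 (SE; adjusted p = 0.0737, limma), and the list's median was 0.009. Of 8 genes of the p53 response, which free ribosomal proteins can set off, Cdkn1a alone was called, at 0.45 ± 0.10 (SE; adjusted p = 0.0307, limma), with a list median of 0.002. This is 12.5% of the list, close to the share over all genes tested.

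The start of the messenger is where these genes share a feature that the symbol rule did not use. RefSeq promoter sequences (GRCm38.p6), 250 bases before to 50 after the annotated start, were matched by symbol to 57 of the 66 members, and 9 were not matched. A TOP-like tract was read as a C followed only by C or T, of at least 5 or at least 8 bases in all, on the gene's strand, starting within 10 bases of the annotated start at any promoter of the gene. Both lengths were chosen with the results known. The longer tract was found in 22 of the 57 members (38.6%), against 9.43% of all 27025 genes with a promoter in the table and 10.5% of the other genes tested. The shorter one was found in 35 (61.4%), against 34.4% and 37.6%.

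The windows below show 15 bases before and 15 from the annotated start, which is base 16. They are given for those of the 6 highest members that were matched and for the 2 lowest. Every other member under the naming rule of the processing section is given where its window holds the longer tract. Rps24 and Rps27, mentioned above outside that rule, hold tracts of 8 and 9 bases and are not shown. Capitals mark the pyrimidine tract. Where a gene has several promoters in the table the first is shown.
Rpl23: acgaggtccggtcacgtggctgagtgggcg
Rpl35a: gcggggcgtgcgtcccacaaggccgcgcgg
Rpl39: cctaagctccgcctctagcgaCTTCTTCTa
Rps19: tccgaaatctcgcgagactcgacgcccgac
Rps27l: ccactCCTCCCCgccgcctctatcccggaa
Rps15a: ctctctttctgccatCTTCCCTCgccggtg
Rpl3l: gagtgttctagctctgtcatttgaCCTCTg
Rpl27a: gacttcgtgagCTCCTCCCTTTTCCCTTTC
Rps6: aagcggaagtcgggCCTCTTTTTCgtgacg
Rpl38: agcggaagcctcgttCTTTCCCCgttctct
Rpl22l1: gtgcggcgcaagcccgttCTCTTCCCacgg

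On GRCm38.p6 these windows are chr7:109519180-109519209 on the plus strand for Rpl27a, chr4:86857353-86857382 on the minus strand for Rps6, chr11:114668565-114668594 on the plus strand for Rpl38 and chr7:118116133-118116162 on the minus strand for Rps15a. The others are chr11:97782425-97782454 on the minus strand for Rpl23, chr7:24884577-24884606 on the plus strand for Rps19, chr16:33056438-33056467 on the plus strand for Rpl35a, chrX:37085208-37085237 on the minus strand for Rpl39 and chr9:66946071-66946100 on the plus strand for Rps27l. Rpl3l lies at chr17:24727811-24727840 and Rpl22l1 at chr3:28805493-28805522, both on the plus strand. The tract was 19 bases for Rpl27a within its window, 10 for Rps6, 8 for Rpl39, Rpl38, Rps15a and Rpl22l1, 7 for Rps27l and 5 for Rpl3l, and the windows of Rpl23, Rpl35a and Rps19 held none. Members with and without a tract were found at both ends of the fold changes. At the low end the windows of Rpl22 and Rps3a1, which are not shown, held none. With the longer tract the median log2 fold change was 0.19 over 19 measured members, and without it 0.13 over 31. With the shorter tract it was 0.20 over 29, and without it 0.11 over 21, both differences small beside the range of the family.

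Other motifs were searched on both strands of the whole promoter. CCGGAAG, the core bound by ETS factors, was present in 22 members (38.6%), against 9.93% of all genes in the table and 19.3% of the other genes tested. AAGATGGC, a motif of YY1, was present in 6 members (10.5%), against 3.19% and 5.15%. CACGTG, the E-box that MYC binds, was present in 6 (10.5%), against 8.09% and 11.7%, and TATAA in 15 (26.3%), against 28.0% and 17.3%. The other strand of CCGGAAG begins with 5 pyrimidines, so it can coincide with the shorter tract, and the motifs do not otherwise contain one another. A stretch of letters is a description of the window and not a site shown to be bound. The median log2 fold change was 0.19 in the 18 measured members with CCGGAAG and 0.16 in the 32 without it, 0.29 in the 5 with CACGTG and 0.17 in the 45 without, 0.13 in the 6 with AAGATGGC and 0.17 in the 44 without, and 0.17 both in the 13 with TATAA and in the 37 without. These medians are descriptions and were not tested.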

How the data were processed

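RNA of 4 PGISp and 4 control spines was amplified from 500 ng and hybridised to MouseRef-8 BeadChip arrays. The submitters' processing notes name BeadStudio, and the study's methods describe GenomeStudio followed by variance-stabilising transformation and robust spline normalisation with lumi. The deposited log2 values were used as the authors made them. A second deposited table held 8 signal and 8 detection columns that could not be assigned to samples and was not used. Groups came from the treatment labels. Each array held the RNA of 1 mouse. The number of arrays limits the precision.

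Of 25695 probes with values, 23976 had a symbol in the platform annotation, which was updated through the gene identifier where possible. Genes were tested on their brightest probe where its mean exceeded the array median of 6.77, with limma 3.58.1 (lmFit and eBayes) in R 4.3.3 and Benjamini-Hochberg adjustment. The methods' multivariate permutation step was not run, and the methods' t-test with the same adjustment was an alternative, as were other filters, probe rules, normalisations, array weights, array position as a covariate and leaving out arrays. The script was tested on simulated data. Plots were drawn with matplotlib 3.10.9 and summaries made with pandas 2.3.3, scipy 1.17.1 and numpy 2.4.6 under Python 3.11.15.

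Genes named were the called members, the 6 highest and 6 lowest fold changes, the P stalk, 5S and paralogue groups, the mutants with skeletal or tail defects, Rps6, members with probes of opposite sign, and up to 3 called genes of each other list. Members, lists and tests were chosen with earlier results of these data known. Sequences came from RefSeq promoters (GRCm38.p6).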

Additional observations from a re-analysis of the deposited data

Results flagged for a closer look

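In groups of 4 arrays, a sample was set apart when its gap to the next exceeded the share of the range that Dixon's 95% critical value allows. Of 52 groups examined, over the named genes and the means of both subunits, 3 were, and chance gives about 1 in 20. For Rpl3l, PGISp array G read 11.87, while the next PGISp array read 11.19 and the lowest 11.05. For Rpl5, PGISp array A read 12.97, with the next at 12.64 and the lowest at 12.59. For Rps7, PGISp array E read 12.74, with the next at 12.66 and the lowest at 12.65, a gap that is small because the 4 PGISp values lay close together.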

How the results depend on the processing

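The main count was 2 members higher and 0 lower. It was 0 higher with no filter on dim genes, with array position as a covariate, at an adjusted p under 0.05, with the methods' t-test and without control arrays B and F, and 1 with an intensity trend in eBayes. At these settings 0 members were lower. Of all genes tested, 4.71%, 10.3%, 6%, 4.28% and 1.7% were called at the settings with 0 higher, in the order given. With the trend 12.2% were. When 1 array was left out at a time the count higher ranged from 0 to 10 and the count lower from 0 to 1. The share of all genes called then ranged from 4.21% to 16.3%. At the other 8 settings the count higher was 2 or 3, with 10.2% to 12.4% of all genes called. The median log2 fold change stayed above 0 at all 22 settings, between 0.07 without control arrays B and F and 0.18, and the median over all genes stayed between -0.01 and 0.006. Rpl27a, at 0.02, was -0.12 without control arrays B and F. Leaving out 1 array at a time turned the sign of uncalled genes near 0: Rpl27a ranged from -0.048 to 0.099, Rpl5 from -0.017 to 0.13, Rps19bp1 from -0.0096 to 0.058, Rpl7l1 from -0.055 to 0.11, Rpl24 from -0.10 to 0.021, Rpl29 from -0.090 to 0.047 and Rplp0 from -0.094 to 0.0054. The cause was not tested. No paired analysis was possible because the labels give no shared replicate numbers. Signal close to background limits the 8 members that were not tested and, among those tested, Rpl21.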
